A study of Mus musculus with 9 samples.

Results

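The macrophage and myeloid marker genes described here are Lyz2, Fcer1g, Cd14, C1qa, C1qb, Cd68, Csf1r, Tyrobp, Ptprc and Lgals3, followed across the mouse cornea at both ages, the tendon and the lens. They were chosen by name, and every probe set that the platform annotation gives to one of them alone was taken. That gave 10 genes and 17 probe sets, of 8251 genes and 12422 probe sets on the array. A probe set is a group of short oligonucleotides on the array that reads one transcript. The values are expression indices in arbitrary units of fluorescence, and an index can be compared between arrays but not between probe sets.

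The study set gene expression in the cornea against that in the lens, another transparent tissue, and in tendon, another collagen-rich tissue. The groups were adult cornea at 7 weeks (3 arrays), cornea at postnatal day 10, here P10 (2 arrays), the flexor digitorum longus tendon at 7 weeks (2 arrays) and the lens at 7 weeks (2 arrays), all of Mus musculus with no genetic change or treatment named in the labels. The limbus, where the cornea meets the vascularised conjunctiva, was cut away from the corneas, and their epithelium was scraped off, which by the study's own account left part of it. Each array held an independent RNA preparation, and the RNA of tendon and lens came from pooled tissue.

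Macrophages are resident phagocytes that engulf debris and sense microbes, and they need the growth factor receptor Csf1r to survive. Their activating surface receptors signal through small adaptor chains, Fcer1g and Tyrobp, whose immunoreceptor tyrosine-based activation motif (ITAM) recruits the kinase Syk. The corneal stroma holds resident macrophages and dendritic cells, the outer sheath of tendon holds macrophages and mast cells, and the healthy lens has no blood vessels and is regarded as free of resident leukocytes.

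Promoter sequences from RefSeq (build GRCm38.p6) were at hand for 6 of the 10 genes. They are 7 windows, since Ptprc has 2 starts, and each runs from 250 bases before a transcript start to 50 after it. The windows of Lyz2 and C1qb are shown because each has a probe set highest in tendon and a match to the motif below. Fcer1g, which was also highest in tendon, has a window with no match. Lyz2 lies at chr10:117282223-117282522 and C1qb at chr4:136886151-136886450, both on the minus strand and printed 5′ to 3′. Capitals mark matches to AGGAAGT on either strand, so that ACTTCCT is a match on the opposite strand. The letters are a core recognised by the ETS family, to which the myeloid factor PU.1 belongs.
Lyz2: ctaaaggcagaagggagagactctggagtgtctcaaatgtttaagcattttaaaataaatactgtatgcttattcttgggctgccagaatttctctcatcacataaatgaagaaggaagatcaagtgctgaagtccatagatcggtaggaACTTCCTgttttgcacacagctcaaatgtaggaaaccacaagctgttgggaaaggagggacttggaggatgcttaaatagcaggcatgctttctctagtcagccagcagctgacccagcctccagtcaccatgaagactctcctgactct
C1qb: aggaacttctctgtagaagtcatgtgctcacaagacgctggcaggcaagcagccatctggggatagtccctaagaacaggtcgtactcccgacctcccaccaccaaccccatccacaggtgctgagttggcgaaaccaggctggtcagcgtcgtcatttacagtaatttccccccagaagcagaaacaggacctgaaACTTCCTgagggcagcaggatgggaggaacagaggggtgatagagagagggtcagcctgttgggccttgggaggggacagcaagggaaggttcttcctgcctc
AGGAAGT occurred in 4 of the 7 windows, in those of C1qb, Lyz2 and both of Ptprc, and in 9.35% of 32851 promoter windows of the same length. The windows of Ptprc overlap and share a match, so that by gene the count was 3 of 6. The motif was picked after the letters of these windows had been seen. GAGGAAG, which overlaps AGGAAGT in 6 letters and was searched on both strands, occurred in 0 of the 7 windows and in 13.63% of all windows. A match is a description of the letters and not evidence of binding.

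The arrays had median indices of 67.6 to 88.0, and their number limits the precision. The marker of each tissue was highest on the arrays labelled with it, but lens and corneal markers were also read in each other's tissue. Krt12, the keratin of the corneal epithelium, had indices of 6440 to 8290 on the 5 cornea arrays, 257 and 401 on tendon and 1603 and 1758 on lens. Cryaa, a lens crystallin, had 1280 to 3082 on cornea, 12.2 and 31.7 on tendon and 6405 and 7231 on lens. The summed index of 8 lens genes was 5686 to 9317 in adult cornea and 7274 to 12950 in P10 cornea. It was 553 to 601 in tendon and 41450 to 43340 in lens. Whether lens RNA came with the cornea, or corneal RNA with the lens, was not tested. Fmod, a tendon proteoglycan, reached 5455 and 6342 on tendon and at most 588 elsewhere. Other tissue came with the tendon: the summed index of 10 skeletal muscle genes was 376 to 462 in adult cornea, 760 to 1026 in P10 cornea, 41570 to 49520 in tendon and 307 to 413 in lens. That of 5 adipocyte genes was 412 to 702 in adult cornea, 504 to 540 in P10 cornea, 5189 to 5527 in tendon and 1463 to 1721 in lens. Adult cornea replicate 1 stood apart in the 3′/5′ ratio of the control transcripts, which rises as RNA degrades. Its Gapdh ratio was 2.28, against 0.84 to 1.08 on the other 8 arrays, and its actin ratio was 4.68, against 1.08 to 2.07. The cornea arrays had served an earlier study, so that batch and tissue cannot be told apart in any comparison of cornea with tendon or lens.

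The 10 genes did not form a single pattern. Lyz2, Fcer1g, Cd14, Csf1r and one probe set of C1qb were highest in tendon. C1qa, the other responding probe set of C1qb and one of Cd68 were highest in lens, and Lgals3 was highest in the cornea. Tests were run on probe sets at or above the array median in 2 arrays or more. This held for 11 of the 17 probe sets, covering 9 genes, while Tyrobp reached the median on 1 array and was not tested. A probe set that passed through 1 tissue in which it was high had to differ from the others, so the counts below are descriptions.

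A call means an adjusted p under 0.05 in limma, with each gene represented by its brightest tested probe set, and all 6 comparisons share arrays. Between adult and P10 cornea 0 of 9 genes were higher and 2 lower, where 4.57% of all 8154 tested probe sets were called, 0.699% higher and 3.88% lower. At an unadjusted p under 0.05 in limma 1 gene was higher and 2 lower. In adult cornea 3 were higher and 2 lower than in lens (51.2% of all called, 27.2% higher and 24.0% lower), and 1 was higher and 3 lower than in tendon (35.0% of all called, 16.1% higher and 18.9% lower). In P10 cornea 4 were higher and 3 lower than in lens (51.0% of all called, 31.6% higher and 19.4% lower), and 1 was higher and 2 lower than in tendon (26.7% of all called, 15.7% higher and 11.0% lower). In tendon 4 were higher and 2 lower than in lens (49.0% of all called, 26.4% higher and 22.6% lower). Groups without overlap were common among all tested probe sets: 31.6% for adult against P10 cornea, 63.9% for adult cornea against lens, 57.9% for adult cornea against tendon, 80.7% for P10 cornea against lens, 76.7% for P10 cornea against tendon and 78.9% for tendon against lens.

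Apart from the comparison of the ages, 26.7% to 51.2% of the array was called, and the member counts are to be read against that. The median log2 difference of the 9 genes was -0.12 in adult against P10 cornea, beside -0.13 for all probe sets tested. It was -0.44 in adult cornea against tendon, beside 0.01, and 0.51 in adult cornea against lens, beside 0.08. For P10 cornea it was -0.34 against tendon, beside 0.13, and 0.79 against lens, beside 0.25. For tendon against lens it was 0.14, beside 0.07. Median centring of the arrays moved the median of all probe sets to 0.04 between adult and P10 cornea and to 0.04 between P10 cornea and lens. The share of calls that were higher moved with it, being 15.3% as deposited and 26.7% to 29.0% under the 3 scalings between the ages, 62.0% and 50.6% between P10 cornea and lens, and 58.7% and 48.5% between P10 cornea and tendon.

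**Figure D1:**
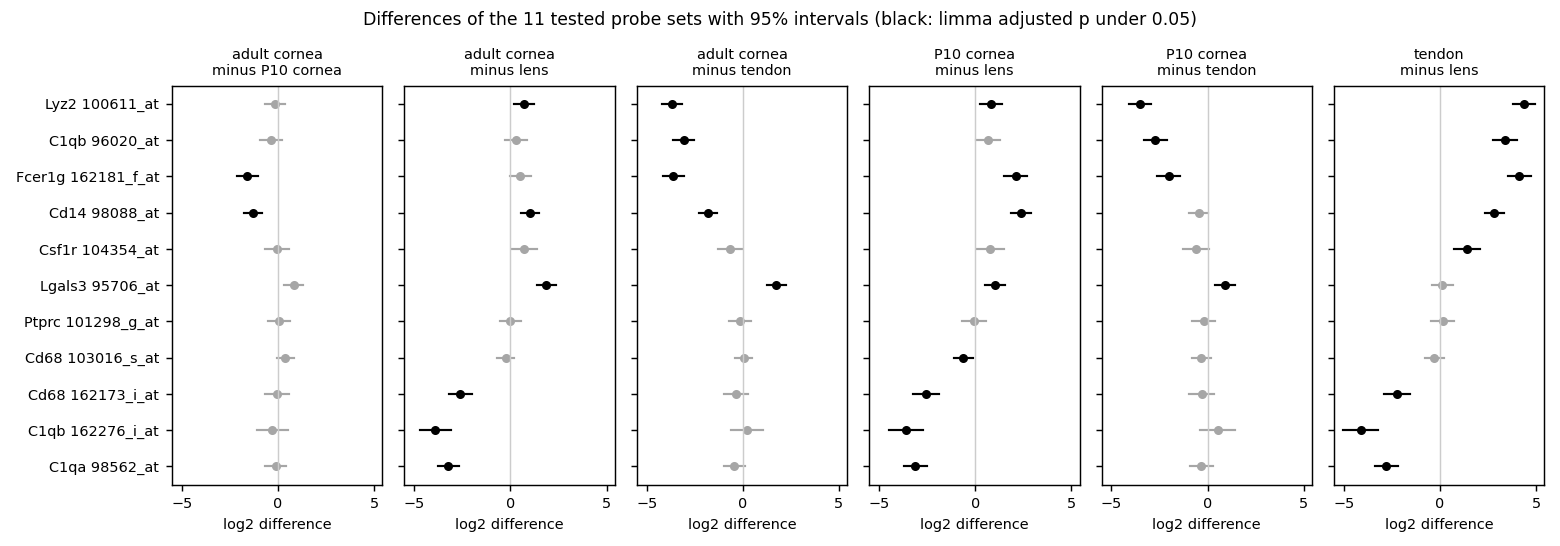
Log2 difference of the 11 tested probe sets in the 6 comparisons, with the 95% interval of the limma fit. Black points passed an adjusted p of 0.05; the calls fall mainly in the comparisons with tendon (upper rows) and with lens (lower rows), and between adult and P10 cornea only Fcer1g and Cd14 were called.

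Fcer1g encodes the common γ chain, the signalling adaptor of the activating Fc receptors on macrophages and of the IgE receptor on mast cells. Its probe set 162181_f_at was at 183, 175 and 140.5 in adult cornea, 701 and 410 in P10 cornea, 2382 and 2051 in tendon, and 102 and 122 in lens. No 2 groups overlapped, and the order was tendon, P10 cornea, adult cornea, lens. In such bulk RNA fewer cells of a type and less RNA per cell cannot be told apart. In adult cornea it was 12.3-fold below tendon (log2 -3.62 ± 0.25 SE, adjusted p = 1.99e-06) and 3.05-fold below P10 cornea (log2 -1.61 ± 0.25 SE, adjusted p = 0.00535). The last call rested in part on the brighter P10 array, since without P10 cornea replicate 1 the adjusted p was 0.0734 (0.000889 to 0.0734 over the limma alternatives). P10 cornea lay 4.03-fold below tendon (adjusted p = 0.00039) and 4.34-fold above lens (adjusted p = 0.000134), and tendon lay 17.5-fold above lens (adjusted p = 1.11e-06). The neighbours adult cornea and lens were not separated (log2 0.51, 95% interval -0.04 to 1.06, adjusted p = 0.107).

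The suffix f marks a probe set that its designers noted as shared by a gene family, and whether it binds other transcripts was not tested. The second Fcer1g probe set, 160692_at, which carries no such mark, stayed between 2.68 and 15.4 on all 9 arrays. It failed the filter, all its groups overlapped, and it showed nothing of the tendon signal. Mast cell genes were divided: of 8 tested, 3 were higher and 3 lower in tendon than in lens (26.4% and 22.6% of all probe sets). In adult cornea 1 was higher and 3 lower than in tendon (16.1% and 18.9% of all). With the first Fcer1g probe set went Fcer1a, the α chain of the IgE receptor, at 1430 and 897 in tendon and at most 146 elsewhere, and Cma1, mast cell chymase, at 434 to 552 in adult cornea, 767 and 993 in P10 cornea, 1734 and 1871 in tendon and 279 and 300 in lens. Other mast cell genes did not. Kit, the mast cell growth factor receptor, had 208 to 360 in cornea and 9.0 and 17.9 in tendon. Cpa3, a mast cell carboxypeptidase, was 7.97-fold lower in tendon than in lens (adjusted p = 1.93e-05), and Tpsab1, a mast cell tryptase, 2.16-fold lower (adjusted p = 0.00536). Cpa3 reached the array median in lens alone and entered the tests through that tissue. The part of mast cells in the Fcer1g values was not tested.

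Tyrobp, or DAP12, is the adaptor of Trem2 and related receptors. Its indices were 3.94, 3.41 and 10.6 in adult cornea, 24.1 and 23.3 in P10 cornea, 79.6 and 78.8 in tendon, and 14.5 and 41.5 in lens. Tendon was highest and adult cornea lowest with no overlap, while P10 cornea lay within the range of lens. The tendon values lay near the medians of their arrays (74.0 and 79.6), and those of the other tissues lay below the array medians. With the filter dropped and all 12422 probe sets tested, Tyrobp was lower in adult cornea than in tendon (log2 -2.13, adjusted p = 0.000181) and than in lens (log2 -0.95, adjusted p = 0.0171). In that fit it was also lower in P10 cornea than in tendon (log2 -1.26, adjusted p = 0.013) and higher in tendon than in lens (log2 1.18, adjusted p = 0.00886), and the ages were not separated (log2 -0.87, adjusted p = 0.134).

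**Figure D2:**
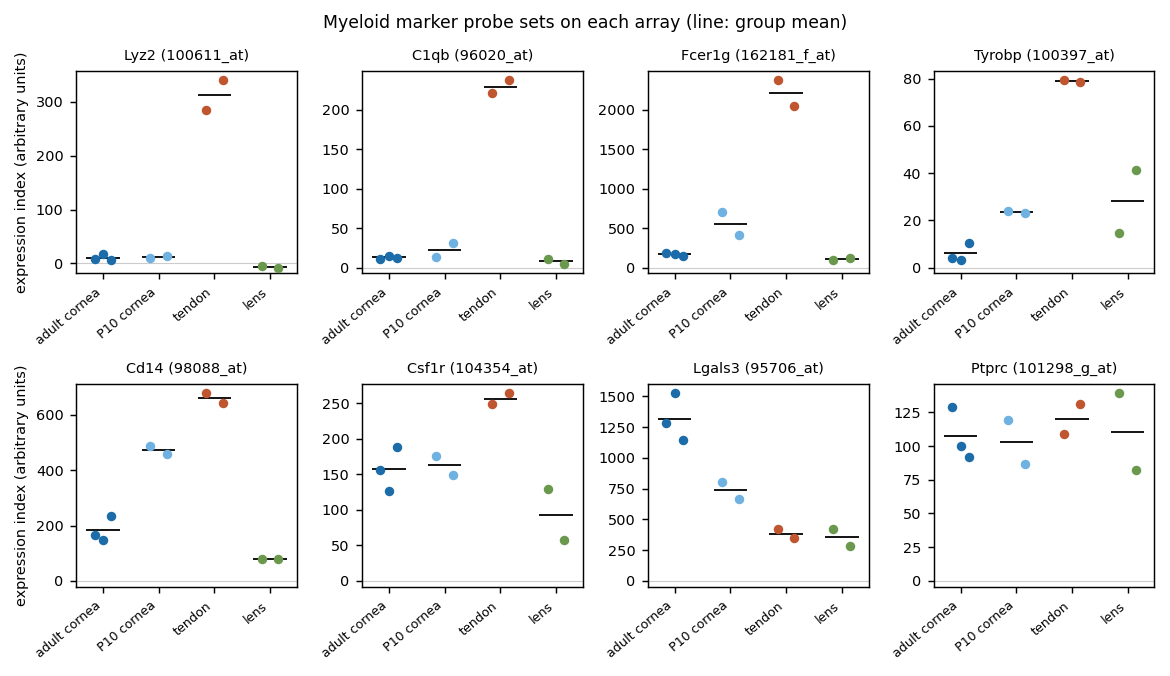
Expression index on each of the 9 arrays for 8 probe sets of the myeloid marker genes, by tissue, with the group mean as a line. Lyz2, C1qb 96020_at, Fcer1g, Tyrobp, Cd14 and Csf1r are highest in tendon, Lgals3 is highest in adult cornea, and the groups of Ptprc overlap; Tyrobp was below the filter and untested.

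C1qa and C1qb encode the A and B chains of C1q, the recognition molecule that starts the classical complement cascade and is made chiefly by tissue macrophages. The chains assemble together with the product of another gene, C1qc, which lies beside them. C1qa had 53.1, 51.6 and 80.9 in adult cornea, 51.6 and 86.7 in P10 cornea, 77.1 and 100.4 in tendon, and 750 and 662 in lens. Only the lens arrays stood apart, and the other 3 groups overlapped. Adult cornea was 9.39-fold below lens (log2 -3.23 ± 0.25 SE, adjusted p = 3.9e-06), P10 cornea 8.65-fold below it (adjusted p = 1.17e-05) and tendon 6.92-fold below it (adjusted p = 1.68e-05). Among the rest, adult cornea against P10 cornea gave log2 -0.12 (95% interval -0.67 to 0.43, adjusted p = 0.904), against tendon log2 -0.44 (interval -0.99 to 0.11, adjusted p = 0.204), and P10 cornea against tendon log2 -0.32 (adjusted p = 0.42).

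The 2 probe sets of C1qb gave opposite pictures. The first, 162276_i_at, had 99.0, 39.0 and 139 in adult cornea, 91.5 and 122 in P10 cornea, 64 and 74.3 in tendon, and 1378 and 1571 in lens. It thus followed C1qa, 14.98-fold lower in adult cornea than in lens (log2 -3.91 ± 0.36 SE, adjusted p = 1.45e-05), 12.2-fold lower in P10 cornea (adjusted p = 5.68e-05) and 17.5-fold lower in tendon (adjusted p = 1.7e-05). The second, 96020_at, had 11.3, 15.2 and 12.4 in adult cornea, 13.1 and 31.6 in P10 cornea, 221 and 238 in tendon, and 10.9 and 4.72 in lens. Here tendon stood far above the rest. Lens lay lowest and overlapped neither age of cornea, but those differences were not called (adjusted p = 0.35 for adult and 0.0682 for P10 cornea in limma). The tendon arrays were the only 2 at or above the array median, so that the probe set entered the tests through them. Adult cornea was below tendon (log2 -3.08 ± 0.25 SE, adjusted p = 6.63e-06), as was P10 cornea (adjusted p = 5.45e-05), and tendon was above lens (log2 3.38 ± 0.27 SE, adjusted p = 4.83e-06). With pseudocounts of 1 and 64 adult cornea against tendon gave log2 -4.05 and -1.93. Between tendon and lens the B chain was therefore called in opposite directions by its 2 probe sets, and each call held in every limma alternative that tested it. The suffix i marks a probe set with an incomplete set of oligonucleotides, and whether it binds other transcripts was not tested.

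C1qc, the C chain and not a member, was read by a single probe set with 45.4, 50.3 and 44.5 in adult cornea, 62.4 and 58.1 in P10 cornea, 354 and 396 in tendon, and 109 and 142 in lens. Tendon was highest and lens second, with no overlap between any 2 groups. Adult cornea was 6.23-fold below tendon (adjusted p = 2.16e-06) and 2.24-fold below lens (adjusted p = 0.000434), and tendon was 2.78-fold above lens (adjusted p = 0.000163). In the direction between tendon and lens, C1qc and C1qb 96020_at had higher values in tendon, and C1qa and C1qb 162276_i_at had lower ones.

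**Figure D3:**
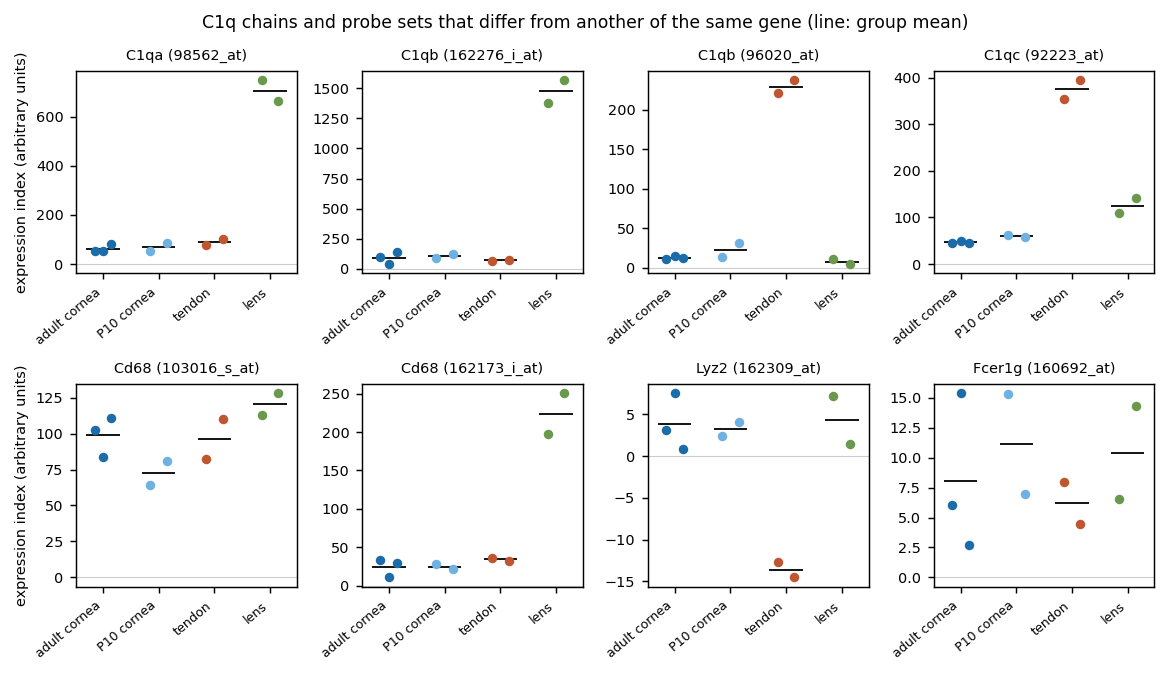
Expression index on each array for the C1q chain genes and for probe sets of Cd68, Lyz2 and Fcer1g that differ from another of the same gene, by tissue, with the group mean as a line. C1qa and C1qb 162276_i_at are high in lens alone, C1qb 96020_at and C1qc are highest in tendon, and Cd68 162173_i_at is high in lens while Cd68 103016_s_at is not set apart; the axes of the panels differ.

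Csf1r is the receptor for colony-stimulating factor 1 and interleukin 34 and the lineage marker of macrophages. Its probe set 104354_at had 156, 127 and 188 in adult cornea, 176 and 149 in P10 cornea, 249 and 264 in tendon, and 129 and 57.2 in lens. Tendon was highest with no overlap, the ages of cornea overlapped, and 1 lens array fell within the range of adult cornea. The only call was tendon above lens, 2.64-fold (log2 1.40 ± 0.31 SE, adjusted p = 0.00405). Adult cornea was uncalled against tendon (log2 -0.67, 95% interval -1.31 to -0.04, adjusted p = 0.0957) and against lens (log2 0.73, interval 0.09 to 1.36, adjusted p = 0.0545), as was P10 cornea against tendon (log2 -0.61, adjusted p = 0.176) and lens (log2 0.79, adjusted p = 0.0577). The differences from lens were close to the threshold, those from tendon less so. With array weights adult cornea against tendon passed (adjusted p = 0.00704 in limma), as did P10 cornea against tendon (0.0146) and against lens (0.0268). The difference of adult cornea from lens passed in 7 alternatives. These were quantile normalization (adjusted p = 0.0416), trimmed mean scaling (0.0241), median centring (0.042), array weights (0.0359), the filter at 5 arrays (0.0479), the fit without lens replicate 1 (0.00563) and the fit without adult cornea replicate 2 (0.0403), with a range of adjusted p of 0.00563 to 0.505 over the limma alternatives. The second Csf1r probe set, 161832_r_at, stayed between 17.3 and 48.1 on all arrays and was not tested.

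Cd14 is the surface co-receptor that hands bacterial lipopolysaccharide to Toll-like receptor 4. It had 166, 148 and 233 in adult cornea, 489 and 458 in P10 cornea, 678 and 644 in tendon, and 80.7 and 77.5 in lens. The 4 groups did not overlap, in the order tendon, P10 cornea, adult cornea, lens. Cd14 was 2.50-fold lower in adult than in P10 cornea (log2 -1.32 ± 0.21 SE, adjusted p = 0.00645), but the call was lost when P10 cornea replicate 1 or 2 was left out (log2 -1.28 and -1.37, adjusted p = 0.0923 and 0.0721; 0.000102 to 0.0923 over the limma alternatives). In adult cornea it was 3.46-fold below tendon (adjusted p = 9.56e-05) and 2.06-fold above lens (adjusted p = 0.00223). In P10 cornea it was 5.14-fold above lens (adjusted p = 2.42e-05), and tendon was 7.12-fold above lens (adjusted p = 5.02e-06). The neighbours P10 cornea and tendon were not separated (log2 -0.47, 95% interval -0.98 to 0.04, adjusted p = 0.161).

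Ptprc encodes CD45, the phosphatase on the surface of all nucleated blood cells and hence the general marker of leukocytes. Its tested probe set, 101298_g_at, had 129, 100.3 and 92.2 in adult cornea, 119.5 and 86.8 in P10 cornea, 109 and 131.5 in tendon, and 139 and 82.0 in lens. Every group overlapped every other, and 0 of 6 comparisons were called, with limma adjusted p between 0.629 and 0.972, and 0 of 6 had an unadjusted p under 0.05 (lowest 0.474). The 95% interval of adult cornea against lens ran from log2 -0.57 to 0.54, and that of P10 cornea against tendon, the largest difference, from -0.81 to 0.40. The other 2 probe sets, 101048_at at 10.2 to 47.4 and 101297_at at -2.75 to 18.5, were not tested. Of these, 101048_at was highest in tendon, at 38.4 and 47.4, and with the filter dropped it was lower in adult cornea (log2 -0.82, adjusted p = 0.0301) and in P10 cornea (log2 -1.04, adjusted p = 0.0208) than in tendon.

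Lyz2 encodes lysozyme M, the bacterial wall-cutting enzyme of macrophages and granulocytes. Its probe set 100611_at had 8.4, 16.8 and 5.73 in adult cornea, 10.4 and 14.7 in P10 cornea, 285 and 341 in tendon, and -4.02 and -7.84 in lens. Tendon stood far above the rest, the ages of cornea overlapped, and lens lay below 0 on both arrays. This probe set reached the array median on the 2 tendon arrays alone, so it entered the tests through the tissue in which it was high. Lyz2 was lower in adult cornea than in tendon (log2 -3.66 ± 0.23 SE, adjusted p = 1.3e-06) and lower in P10 cornea than in tendon (log2 -3.52 ± 0.26 SE, adjusted p = 5.31e-06). The pseudocount set the size: adult cornea against tendon gave log2 -4.91 with a pseudocount of 1 and -2.34 with 64. Tendon against lens was called (adjusted p = 5.88e-07), with no fold given against a value below 0.

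At the low end Lyz2 was called above lens in adult cornea (log2 0.70, adjusted p = 0.0309) and in P10 cornea (log2 0.83, adjusted p = 0.0214), on indices of 5.73 to 16.8. Both calls were lost with a pseudocount of 64 (adjusted p = 0.15 and 0.113), with quantile normalization (adjusted p = 0.0595 and 0.0916), with median centring and in several fits that left out 1 array. Over the limma alternatives the adjusted p ran from 0.000615 to 0.15 for adult cornea and from 0.000687 to 0.128 for P10 cornea. The second probe set of Lyz2, 162309_at, lay between -14.5 and 7.53 on all arrays, was lowest in tendon at -12.7 and -14.5, and was not tested. Lysozyme genes are near-identical copies, and whether 100611_at also reads Lyz1 was not tested.

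Cd68 is a glycoprotein of the macrophage lysosome. Its probe set 103016_s_at had 103, 83.5 and 111 in adult cornea, 64.1 and 81.3 in P10 cornea, 82.2 and 110.5 in tendon, and 113 and 128 in lens. The groups were close, and the only call was P10 cornea below lens, 1.54-fold (log2 -0.63 ± 0.22 SE, adjusted p = 0.0381). It was lost with the filter dropped (adjusted p = 0.0502) and when either array of P10 cornea, tendon or lens was left out (adjusted p = 0.0532 to 0.225; 0.00792 to 0.225 over the limma alternatives). The other probe set, 162173_i_at, had 33.1, 10.8 and 30.0 in adult cornea, 28.5 and 21.2 in P10 cornea, 36.5 and 32.6 in tendon, and 197 and 251 in lens. Lens alone stood apart, and only the 2 lens arrays reached the array median, so that 162173_i_at entered the tests through them. Adult cornea was below lens (log2 -2.60, adjusted p = 3.22e-05), as were P10 cornea (adjusted p = 8.4e-05) and tendon (adjusted p = 0.00016). With pseudocounts of 1 and 64 adult cornea against lens gave log2 -3.27 and -1.70. The suffix s marks probes shared with other transcripts, and cross-binding was not tested for either.

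Lgals3 encodes galectin-3, a galactoside-binding lectin secreted by macrophages that epithelia, the corneal one included, also make. It had 1281, 1524 and 1148 in adult cornea, 801 and 668 in P10 cornea, 418 and 350 in tendon, and 424 and 287 in lens. All adult cornea arrays lay above all P10 arrays, these lay above tendon and lens, and tendon and lens overlapped. In adult cornea Lgals3 was 3.33-fold above tendon (log2 1.73 ± 0.22 SE, adjusted p = 0.000164) and 3.63-fold above lens (log2 1.86 ± 0.22 SE, adjusted p = 6.91e-05). Tendon against lens gave log2 0.13 (95% interval -0.41 to 0.66, adjusted p = 0.699).

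The difference between the ages, 1.77-fold higher in the adult (log2 0.83, 95% interval 0.34 to 1.31), was not called (adjusted p = 0.0697). It passed with quantile normalization (adjusted p = 0.0113), trimmed mean scaling, median centring, array weights and without either lens array, with a range of 0.00649 to 0.471 over the limma alternatives. P10 cornea was 2.05-fold above lens (adjusted p = 0.00531; 0.000539 to 0.0511 over the alternatives, the last without P10 cornea replicate 1). It was 1.88-fold above tendon (adjusted p = 0.0194; 0.000602 to 0.146 over the alternatives), a call lost when any 1 of the P10 cornea or tendon arrays was left out. The summed index of 10 corneal epithelium genes was high in cornea, as Lgals3 was: 13290 to 14680 in adult cornea, 16920 to 17390 in P10 cornea, 639 to 1175 in tendon and 2183 to 2579 in lens. Such a sum is carried by its brightest probe sets. Of the 9 tested singly, 0 were higher and 1 lower in adult than in P10 cornea (4.57% of all probe sets called), with a median log2 difference of -0.001. In tendon 2 were higher and 3 lower than in lens (49.0% of all called), with a median of -0.035. The part of the epithelium in the Lgals3 values was not tested.

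The likeness of patterns was measured as the root mean square (RMS) difference of log2 values, each probe set centred on its own mean, over the 9 arrays. Among the members the closest were Ptprc 101298_g_at and Cd68 103016_s_at (RMS 0.35), both with little difference between groups, so that a low RMS can come from flat patterns. Csf1r and Ptprc lay at RMS 0.474. Of those with larger differences, Lyz2 and C1qb 96020_at were close (RMS 0.394), as were C1qa and Cd68 162173_i_at (RMS 0.409) and C1qa and C1qb 162276_i_at (RMS 0.539). The 2 tested probe sets of C1qb were far apart (RMS 2.55). Outside the members, 3998 probe sets with 1 gene symbol and a span of at least 1 log2 unit between group means were searched.

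The nearest to Lyz2 was Pfkm, the muscle phosphofructokinase (RMS 0.146), followed by the lipid droplet gene Plin4 (RMS 0.234) and Pkia (RMS 0.236). C1qb 96020_at was nearest to Cav3, the muscle caveolin (RMS 0.188), Fgl2 (RMS 0.216) and Mef2c (RMS 0.222). The nearest to Fcer1g were Wipf1 (RMS 0.305), Chmp4b (RMS 0.31) and Cav1 (RMS 0.334), those to Cd14 were Cyc1 (RMS 0.178), Map4k1 (RMS 0.209) and Wwtr1 (RMS 0.228), and those to Csf1r were Bcl6 (RMS 0.154), Pik3c2a (RMS 0.192) and Cyc1 (RMS 0.193). Pfkm, Plin4 and Pkia stood nearer to Lyz2 than any member did. They are the nearest of 3998 probe sets searched, set beside a few members, so that this is a description only.

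The lens-high probe sets had other company. C1qa was nearest to Pcbd1 (RMS 0.199), Ret (RMS 0.221) and Fam50b (RMS 0.221), C1qb 162276_i_at to the RNA-editing enzyme gene Adar (RMS 0.134), Cdk2 (RMS 0.196) and the granzyme gene Gzmf (RMS 0.238), and Cd68 162173_i_at to the lymphocyte receptor gene Ly9 (RMS 0.136), Alox12b (RMS 0.154) and Scn8a (RMS 0.164). Lgals3 was nearest to S100a10 (RMS 0.191), Tuft1 (RMS 0.209) and Epop (RMS 0.218). Group means of S100a10 were 2288 in adult cornea, 1479 in P10 cornea, 712 in tendon and 565 in lens, the same order as the means of Lgals3.

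Other genes of macrophages and monocytes were called in both directions between tendon and lens. Of 50 listed genes 37 were on the array and 22 were tested. In tendon 8 were higher and 4 lower than in lens, where 49.0% of all tested probe sets were called, 26.4% higher and 22.6% lower, so that the total called is near that of the array. Their median log2 difference was 0.44, beside 0.07 for all probe sets. Mrc1, the mannose receptor of tissue macrophages, averaged 208 ± 13.4 in tendon and 11.6 ± 1.08 in lens (SD, n = 2 each), 8.11-fold apart (adjusted p = 5.23e-06), and the lysosomal protease gene Ctss 184 ± 21.6 and 15.6 ± 8.92 (6.45-fold, adjusted p = 9.26e-05). Of these, Mrc1 reached the array median in tendon alone, so it entered the tests through the tissue in which it was high. In the other direction, Fcgr1, the high-affinity receptor for IgG, had 12.4 and 16.5 in tendon and 1320 and 1281 in lens (43.4-fold, adjusted p = 4.46e-06), and Mpeg1, a pore-forming protein of the phagosome, was below 0 in tendon and had 1610 and 2208 in lens (adjusted p = 1.12e-07). The defining genes Adgre1 (24.6 to 55.7), Itgam (8.1 to 33.3), Spi1 (31.6 to 64.2) and Fcgr3 (35.1 to 74.8) were under the filter in all tissues.

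**Figure D4:**
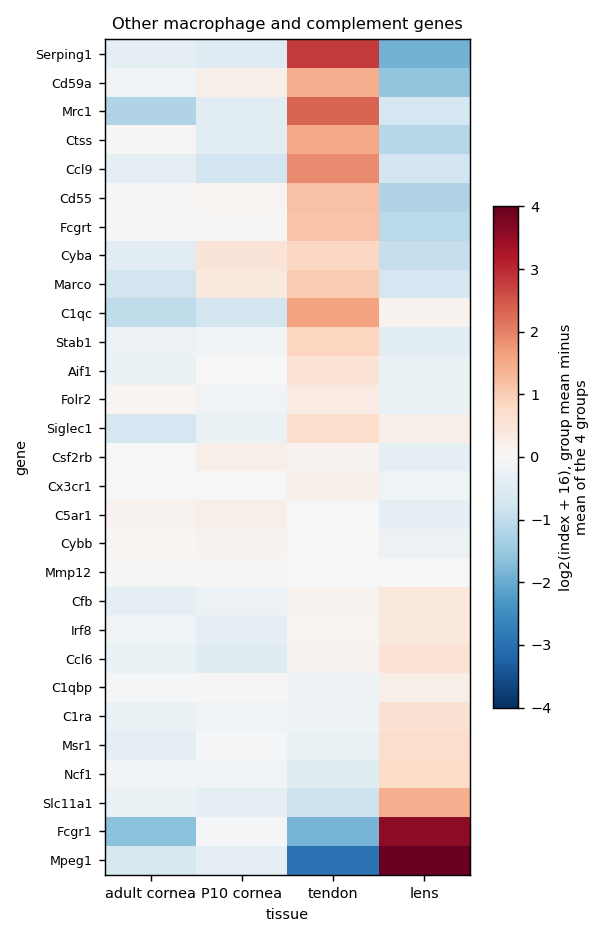
Group means of log2(index + 16), each minus the mean of the 4 groups, for the tested genes of the macrophage and complement lists. Genes from Serping1 to C1qc are highest in tendon, and Slc11a1, Fcgr1 and Mpeg1 are highest in lens.

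In adult cornea 1 of these 22 genes was higher and 8 were lower than in tendon (35.0% of all probe sets called), and 2 were higher and 7 lower than in lens (51.2%). In P10 cornea 2 were higher and 6 lower than in tendon (26.7%), and 3 were higher and 6 lower than in lens (51.0%). Between the ages 0 were higher and 2 lower in the adult (0.699% and 3.88% of all probe sets), and at an unadjusted p under 0.05 in limma 0 were higher and 4 lower. The 2 called were Marco, a scavenger receptor (132, 107 and 186 in adult cornea, 330 and 325 in P10 cornea, 2.22-fold, adjusted p = 0.0251), and Cyba, a subunit of the phagocyte oxidase (89.8, 102 and 123 in adult cornea, 192 and 245 in P10 cornea, 1.94-fold, adjusted p = 0.0383). Of 4 tested red blood cell genes 2, both globins, were lower in the adult cornea (3.88% of all probe sets lower), as Cd14 and Fcer1g were. Hba-a1, an α-globin, had 466.5, 468.5 and 775 in adult cornea and 1149 and 1713 in P10 cornea (2.49-fold lower in the adult, adjusted p = 0.0189), and Hbb-b2, a β-globin, was 3.42-fold lower (adjusted p = 0.00431). The other two, Alas2 (69.1 to 85.3 in adult cornea, 73.3 and 86.1 in P10 cornea) and Slc4a1 (44.2 to 63.3 in adult cornea, 58.5 and 64.1 in P10 cornea), overlapped between the ages. Of 12 tested granulocyte genes 1 was higher and 1 lower in the adult (0.699% and 3.88% of all probe sets), with a median log2 difference of 0.002. The lower was the protease Ctsg, at -110.5, 7.7 and 23.1 in adult cornea and 825 and 798 in P10 cornea (adjusted p = 5.43e-05), and the higher was Ltf, lactoferrin, at 97.5, 174.9 and 129.7 in adult cornea and 60.3 and 58.9 in P10 cornea (1.94-fold, adjusted p = 0.0428). The part of blood in the age difference was not tested.

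Of 7 tested genes of classical complement and its regulators other than the members, 4 were higher and 1 lower in tendon than in lens (49.0% of all probe sets called), and 0 were called between the ages (4.57% of all), where 0 also had an unadjusted p under 0.05 in limma. In adult and in P10 cornea 0 were higher and 4 lower than in tendon, beside 18.9% and 11.0% of all probe sets lower. The counts at an unadjusted p under 0.05 in limma were the same. Serping1, the C1 inhibitor, had 191, 248 and 136 in adult cornea, 209.5 and 138 in P10 cornea, 1724 and 1925 in tendon, and 98.2 and 29.4 in lens. It was 25.5-fold higher in tendon than in lens (adjusted p = 8.71e-06). Cd59a and Cd55, which shield host cells from complement, were 8.17-fold and 5.25-fold higher in tendon than in lens (adjusted p = 3.42e-05 and 1.17e-05). Of the pair, Cd55 reached the array median in tendon alone and entered the tests through that tissue.

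Among 8 tested partners of Cd14 in Toll-like receptor signalling, 0 were called between the ages, where 4.57% of all probe sets were called. At an unadjusted p under 0.05 in limma the count was also 0. In cornea of either age 1 was lower than in tendon (18.9% of all probe sets lower in adult cornea and 11.0% in P10 cornea). That gene was Lbp, the serum protein that loads lipopolysaccharide onto Cd14, with means of 37.8 in adult cornea, 35.9 in P10 cornea, 453 in tendon and 13.2 in lens (adult cornea 8.92-fold below tendon, adjusted p = 5.52e-06). Lbp reached the array median in tendon alone and entered the tests through it. Of the 8 genes 4 were higher and 1 lower in adult cornea than in lens (27.2% and 24.0% of all probe sets). In P10 cornea 3 were higher and 1 lower than in lens (31.6% and 19.4%), and in tendon 2 and 1 (26.4% and 22.6%). The lower gene was each time Traf6, a ubiquitin ligase of the pathway. It had 58.1, 69.9 and 62.6 in adult cornea, 50.2 and 70.0 in P10 cornea, 49.1 and 61.3 in tendon and 525 and 499 in lens (7.45-fold lower in tendon than in lens, adjusted p = 2.29e-06). Tlr4 itself has no probe set given to it alone.

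Of 7 tested genes for Csf1r ligands and ITAM signalling, 0 were called between the ages in limma (4.57% of all probe sets called). At an unadjusted p under 0.05 in limma 1 was higher and 0 lower. In adult cornea 1 was higher and 2 lower than in tendon (35.0% of all probe sets called). In tendon 2 were higher and 1 lower than in lens (49.0% of all called). Csf1, a ligand of Csf1r, was called in 0 of 6 comparisons, 0 of them at an unadjusted p under 0.05 in limma. Syk, the kinase recruited by Fcer1g and Tyrobp, had 289, 257 and 234 in adult cornea and 398 and 420 in tendon (1.54-fold lower in adult cornea, adjusted p = 0.0218). Pik3cd, a leukocyte lipid kinase, was 3.40-fold higher in tendon than in lens (adjusted p = 0.000224).

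General leukocyte genes were called in both directions, and most calls in the comparisons with tendon had tendon higher. Of 18 tested, 0 were called between the ages in limma (0 at an unadjusted p under 0.05), where 4.57% of all probe sets were called. In adult cornea 1 was higher and 6 lower than in tendon (35.0% of all probe sets called, 16.1% higher and 18.9% lower). In P10 cornea 1 was higher and 5 lower than in tendon (26.7% of all called, 15.7% higher and 11.0% lower). In tendon 6 were higher and 2 lower than in lens (49.0% of all called, 26.4% higher and 22.6% lower). The median log2 difference was -0.46 for adult cornea against tendon, beside 0.01 for all probe sets, and 0.16 for tendon against lens, beside 0.07. Lcp1, the actin bundler of leukocytes, had 35.6, 14.4 and 46.3 in adult cornea, 50.7 and 48.1 in P10 cornea, 107 and 116.5 in tendon, and 21.3 and 20.0 in lens. Laptm5, a lysosomal membrane protein of leukocytes, had 220, 254 and 245 in adult cornea, 236 and 297 in P10 cornea, 401 and 392.5 in tendon, and 123 and 122 in lens. Both were lowest in lens and highest in tendon, with tendon over lens called (3.48-fold, adjusted p = 0.000802, and 2.98-fold, adjusted p = 1e-04). Lcp1 reached the array median in tendon alone, so it entered the tests through the tissue in which it was high. Itgb2, the β2 integrin chain, was called in 0 of 6 comparisons (1 at an unadjusted p under 0.05 in limma), and Cd53 was under the filter.

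Lymphocyte genes were among those high in lens. Of 8 tested T and NK cell genes 0 were higher and 6 lower in adult cornea than in lens, and 0 were higher and 6 lower in tendon than in lens, with the same counts at an unadjusted p under 0.05 in limma. Over all probe sets 24.0% were lower in adult cornea than in lens and 22.6% in tendon than in lens. Cd2, a T cell adhesion receptor, had 133, 149 and 71.7 in adult cornea, 113 and 116 in P10 cornea, 112 and 93.8 in tendon, and 835 and 836 in lens (6.60-fold lower in adult cornea than in lens, adjusted p = 1.72e-05). Ikzf1, the lymphoid transcription factor Ikaros, had 81.0 and 102 in tendon and 350 and 342 in lens (3.38-fold lower in tendon, adjusted p = 0.000802). Among 5 tested MHC class II genes only H2-Aa, an antigen-presenting chain, separated cornea from tendon, at -2.1, 15.3 and 10.7 in adult cornea, -4.3 and -14.5 in P10 cornea, 210 and 186 in tendon, and below 0 on both lens arrays (adjusted p = 1.68e-05 for adult cornea below tendon). H2-Aa reached the array median in tendon alone and entered the tests through that tissue. The part of any of these cell types in the members' values was not tested.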

How the data were processed

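Biotin-labelled RNA was hybridised to Affymetrix arrays, per the labels. As deposited, each probe set has 1 intensity on a linear scale per array, called an index here. The series' design text describes Microarray Suite and then dChip with invariant-set normalisation, while MAS5 is named per the submitters' processing notes, and the sources used here do not say which of them made the authors' values. The table holds 12488 probe sets, 66 of them controls that were left out, and 1 that is given to a member together with another gene was not used. Of 10833 probe sets with 1 gene symbol 10817 matched the reference gene table.

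The arrays' trimmed means lay within a ratio of 1.171, so values were used as deposited. Values under 0 were set to 0, and log2(value + 16) was computed, a pseudocount that understates folds of low genes. Tests covered the 8154 probe sets (6109 genes) at or above the array median in 2 arrays or more. A group-means model over all arrays was fitted with limma 3.58.1 in R 4.3.3, with 5 residual and 4.933 prior degrees of freedom, two-sided, with Benjamini-Hochberg adjustment within each comparison over all tested probe sets. The scripts were tested on simulated data. Replicates were separate RNA preparations, and p-values measure the spread between them. Same-numbered arrays of different tissues did not deviate together from their group means (r between -0.363 and 0.201). Differently numbered arrays gave r between -0.509 and 0.509, the highest for adult cornea replicate 3 with P10 cornea replicate 2. The labels tie the numbers to no shared animal or day, so no block was used.

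Promoter windows and gene names came from RefSeq tables, and no genome build is stated for the array. The members and all other gene lists were chosen with earlier results of these data known. From each other list the text could name, per comparison, up to 4 called genes with the largest differences and no overlap between groups, or the 2 brightest where none was called, besides Ctss, Spi1, Itgb2, Adgre1, Itgam, C1qc, Fcgr3, Csf1, Il34, Tlr4, Cd53, Laptm5, Krt12, Kera, Cryaa and Fmod. Alternatives were other pseudocounts, filters, scalings, a fit of only the groups compared, array weights, the methods' t-test, a replicate block, leaving out probe sets below -100 and leaving out each array.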

Additional observations from a re-analysis of the deposited data

How the results depend on the processing

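Of 66 pairs of a member probe set and a comparison 33 were called, and 26 of these calls held in all 9 fits that left out 1 array and in every other limma alternative run, with 0 of the 33 reversed. The methods' t-test, with its demand of a 2-fold and 100-unit difference, lost 11 of the 33 and called 1 member gene between adult and P10 cornea, 3 between adult cornea and lens, 3 between P10 cornea and lens and 1 between P10 cornea and tendon, where limma called 2, 5, 7 and 3. Over all probe sets it called 185, 1489, 1320, 1178, 849 and 1336 in the order adult cornea against P10 cornea, lens and tendon, P10 cornea against lens and tendon, and tendon against lens. After Benjamini-Hochberg adjustment it kept 0, 189, 366, 2, 0 and 1, against limma's 373, 4175, 2856, 4156, 2174 and 3994; the cause was not tested. Between P10 cornea and tendon 5 genes were called with array weights, which gave adult cornea replicate 1 the most weight, and 5 in a fit of only those groups, which adds Cd14 and Csf1r. Leaving out 1 array gave 0 to 3 called genes between adult and P10 cornea (0 when P10 cornea replicate 1 was left out, 1 when P10 cornea replicate 2 was) and 4 to 8 between P10 cornea and lens (4 without P10 cornea replicate 1). The ranges were 4 to 5 for adult cornea against lens, 4 to 5 against tendon, 2 to 3 for P10 cornea against tendon and 6 to 6 for tendon against lens. The stricter filter left C1qb 96020_at, Lyz2 and Cd68 162173_i_at untested. Each of these probe sets had entered the tests through the 1 tissue in which it was high, so those of their calls that are among the 26 are descriptions.

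With the replicate number as a block, 2, 5, 5, 8, 3 and 6 member genes were called in the order given, and no count moved by over 1.5 times. The numbers share no source, and the block changed single calls for Csf1r alone. With the lens numbers crossed, chosen after seeing the data, 6 genes were called between tendon and lens.

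The reversals all concern uncalled differences. Between adult and P10 cornea quantile normalization gave log2 0.064 for C1qa, 0.12 for Csf1r, 0.021 for Lyz2 and 0.13 for Cd68 162173_i_at. Median centring gave 0.047, 0.11, 0.028 and 0.12 for the same probe sets, trimmed mean scaling 0.071 for Csf1r and 0.033 for Cd68 162173_i_at, and array weights 0.18 for Cd68 162173_i_at. For Ptprc 101298_g_at, adult cornea against lens turned to 0.039 with trimmed mean scaling, 0.17 with array weights and 0.075 with the block, and against tendon to 0.029 with array weights. With the block, adult cornea against tendon turned to -0.10 for C1qb 162276_i_at and -0.037 for Cd68 103016_s_at. Leaving out 1 array gave, between adult and P10 cornea, -0.42 to 0.18 for C1qa, -0.61 to 0.13 for C1qb 162276_i_at, -0.21 to 0.23 for Cd68 162173_i_at, -0.19 to 0.072 for Csf1r and -0.15 to 0.25 for Ptprc. It gave -0.34 to 0.32 for Ptprc in adult cornea against lens, -0.39 to 0.27 in P10 cornea against lens and -0.19 to 0.47 in tendon against lens. In adult cornea against tendon it gave -0.10 to 0.65 for C1qb 162276_i_at and -0.15 to 0.22 for Cd68 103016_s_at, and in tendon against lens -0.14 to 0.39 for Lgals3.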
